A study of Drosophila melanogaster with 2 samples.

Results

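The exonic pooled summits are the ChIP-seq summits of the Drosophila transcription factor Eyeless that lay in the exons of protein-coding genes and away from their promoters. A summit, the base at which the peak caller placed the maximum of a called region, was kept when it fell in coding sequence, 5′ UTR or 3′ UTR and more than 500 bp from the transcription start site (TSS) of any protein-coding gene. Of the 30000 regions in the list called on both replicates together, 1693 met the rule (5.64%, exact binomial 95% interval 5.38 to 5.91). They comprised 830 summits in coding sequence, 270 in 5′ UTRs and 593 in 3′ UTRs.

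Eyeless (ey) is a fly Pax6 protein, which binds DNA through a paired domain and a homeodomain and is best known for directing eye development. Transcription factors are mostly found at promoters and at enhancers in introns and intergenic sequence, whereas coding sequence is constrained by the protein it encodes and is usually poor in such elements. UTRs are the transcribed but untranslated ends of an mRNA and can also overlap enhancers in the DNA.

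ChIP-seq, the sequencing of DNA pulled down with a protein, was performed on whole larvae of mixed sex, wandering at the third instar, from a stable transgenic line in which ey carries GFP at its C-terminus. The labels give an anti-GFP immunoprecipitation in their description and name ey as the antibody elsewhere, and they give the larval age as unknown. The study held 1 group of 2 biological replicates, numbered 1 and 3, so no condition could be compared and every statement on spread rests on 2 libraries. A whole larva mixes the nuclei of all its tissues, so a weak region in every cell and a strong region in a few cells cannot be told apart. No untagged or input list was analysed here.

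Sequence around strong coding summits is given as a description. The 30 bases around the summit of the 6 strongest coding members after the one in otp are printed on the plus strand of dm6 (Release 6 sequence from RefSeq), with runs of at least 4 A or T bases in capitals, since the strong regions of this experiment as a whole sit on AT-rich sequence.
bif (chrX:11681755-11681784): aaagagaaacatgatcggttcagaggAAAA
klar (chr3L:506216-506245): cgtttgaatggccgcccagaggtcgtcttt
CG31259 (chr3R:8524497-8524526): gctgtgcctgcgctgcggcaggaatgatga
CG10962 (chrX:8973315-8973344): ctcgcccagcttggccttcgtttcgtccgg
su(w[a]) (chrX:1041620-1041649): ccgagcttgtcgcTATTTATAgcccTATTT
Naprt (chr2L:4195873-4195902): ataggcataggccatggTTATTTggtacaa
The printed bases of klar, CG31259 and CG10962 held no such run and were 56.7%, 63.3% and 66.7% G or C. Those of su(w[a]), Naprt and bif held runs of up to 8, 6 and 4 bases and were 43.3%, 40.0% and 36.7% G or C. Of the 12 strongest coding members, only these 3 had a lower share of G and C in the 101 bp at the summit than in windows 300 bp to each side. In otp, not printed, the 101 bp were 61.4% G or C, against 30.2% in those windows.

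The first question was how often summits fell in exons, given how much of the genome exons cover. Coding sequence away from promoters makes up 18.7 Mb, or 13.9% of the main chromosome arms, and held 2.77% of the pooled summits. This is 44.5 coding summits per Mb (exact Poisson interval 41.5 to 47.6), against 224 per Mb over the whole genome and 243 per Mb in introns. The 3′ UTRs held 98.0 per Mb (90.3 to 106). The 5′ UTRs held 254 per Mb (225 to 287), close to the density of introns and below the 546 per Mb found within 500 bp of a TSS. Coding sequence was the sparsest class in each replicate's own list as well, with 40.7 summits per Mb in replicate 1 and 80.2 in replicate 3.

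**Figure D1:**
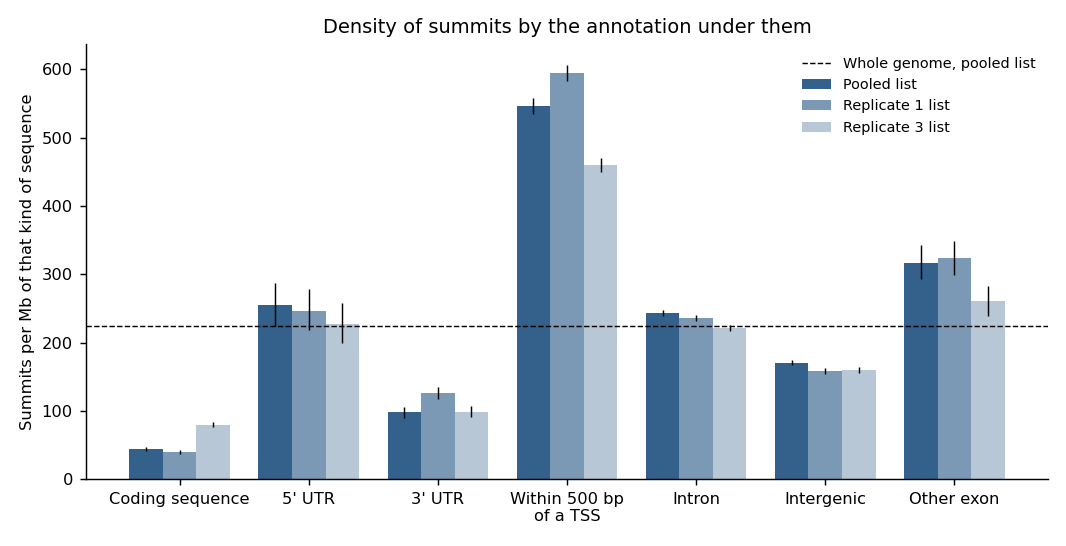
Summits per Mb of each kind of sequence (y axis) in the pooled list and in the list of each replicate, with exact 95% Poisson intervals that cover counting error over regions only. Coding sequence is the lowest class in all 3 lists, at 44.5 per Mb in the pooled list, and the 5′ UTRs reach 254 per Mb.

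Coding sequence was sparse in summits on every arm. The density of the large arms ran from 35.6 per Mb on X (29.5 to 42.6) to 52.3 on 3R (45.8 to 59.5), with 43.2 on 2L, 41.8 on 2R and 49.0 on 3L. The small chromosome 4 held 3 coding summits, or 11.8 per Mb (2.43 to 34.4). In 3′ UTRs the density of the 5 large arms lay between 90.6 per Mb on X and 117 per Mb on 2R, and all of their intervals overlapped.

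The deposited signal is the authors' own strength value for a region, on a scale the files and labels leave unstated, and it served only to rank and describe regions within a list. The exonic members were mostly weak regions. The authors' optimal list, their reproducibility-filtered list, holds the 6835 strongest pooled regions, or 22.8% of all. It held 12 of the 830 coding members (1.45%, 0.749 to 2.51), 41 of the 270 members in 5′ UTRs (15.2%, 11.1 to 20.03) and 61 of the 593 in 3′ UTRs (10.3%, 7.96 to 13.0). Among the other classes the share was 31.9% near promoters, 21.2% in introns and 18.7% in intergenic sequence. Of the 3 exonic classes, the 5′ UTR members thus came nearest to the list as a whole and the coding members lay furthest below it.

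The median signal was 19.5 in coding sequence, 29.8 in 5′ UTRs and 23.8 in 3′ UTRs, against 34.2 over all pooled regions. The strongest member reached 401 in coding sequence, 868 in a 5′ UTR and 1446 in a 3′ UTR. Both kinds of UTR therefore held individual regions that were strong in the experiment as a whole, and rank 56 of the pooled list was a 3′ UTR summit.

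The share of coding summits grew down the list. Coding members were 3 of the 2500 strongest pooled regions (0.120%) and 216 of the 2500 weakest (8.64%). In replicate 1 the same bins held 0.0800% and 7.60%. In replicate 3 they held 0.160% of the strongest 2500 and 10.9% of ranks 20001 to 22500. The 3′ UTR share also grew, from 0.80% to 3.36% of a pooled bin. The 5′ UTR share was 0.480% in both of the strongest bins, 1.32% at ranks 20001 to 22500 and 0.760% in the weakest bin.

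**Figure D2:**
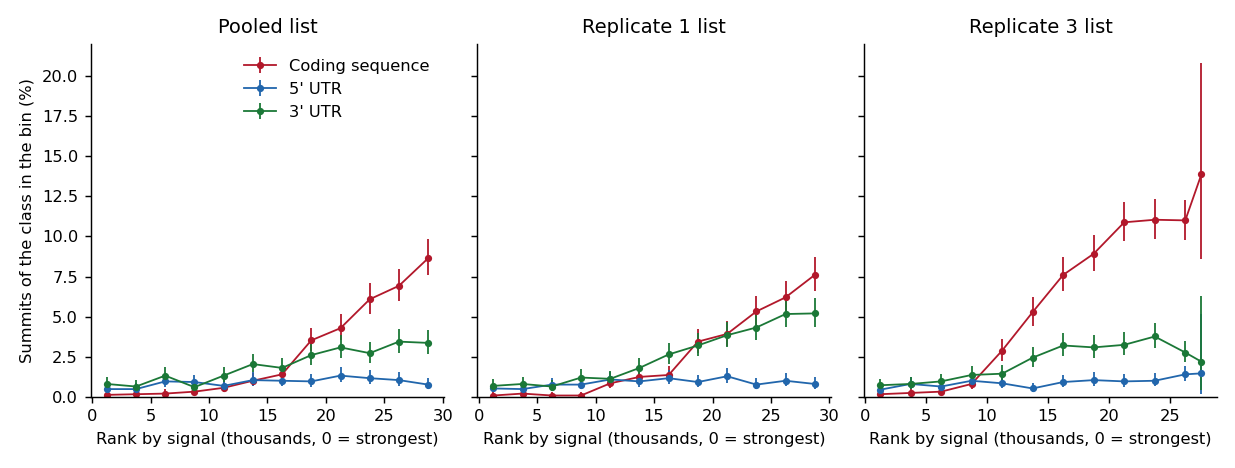
Percentage of regions whose summit lay in coding sequence, 5′ UTR or 3′ UTR (y axis) in consecutive bins of 2500 regions ordered by signal (x axis, strongest at the left), for the pooled list and each replicate, with exact 95% binomial intervals; the last bin of replicate 3 is smaller. The coding share climbs in every list, and to 8.64% at the weak end of the pooled list.

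Coding sequence was also the exonic class whose count differed most between the 2 replicates. The list of replicate 3 held 1497 coding summits among 27637 regions (5.42%), and that of replicate 1 held 759 among 30000 (2.53%). The 5′ UTRs gave 241 summits in replicate 3 and 262 in replicate 1, and the 3′ UTRs 597 and 765. Of the coding regions in replicate 3, 14.8% overlapped a region of replicate 1 by at least 1 bp, against 63.5% of all regions in that list. Of the coding regions in replicate 1, 26.6% overlapped one of replicate 3, against 65.1% of all regions.

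Members of the pooled list were then looked up in both replicates. A region of each replicate overlapped 205 of 830 members in coding sequence (24.7%, 21.8 to 27.8), 157 of 270 in 5′ UTRs (58.1%, 52.0 to 64.1) and 263 of 593 in 3′ UTRs (44.4%, 40.3 to 48.5), against 63.3% of all pooled regions. A further 316 coding members were overlapped in replicate 3 alone and 192 in replicate 1 alone, and 117 in neither. Counting only the 6835 strongest regions of each replicate, 8 coding members, 38 in 5′ UTRs and 48 in 3′ UTRs were overlapped in both, which is 0.964%, 14.1% and 8.09% of them, against 21.9% of all pooled regions.

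**Figure D3:**
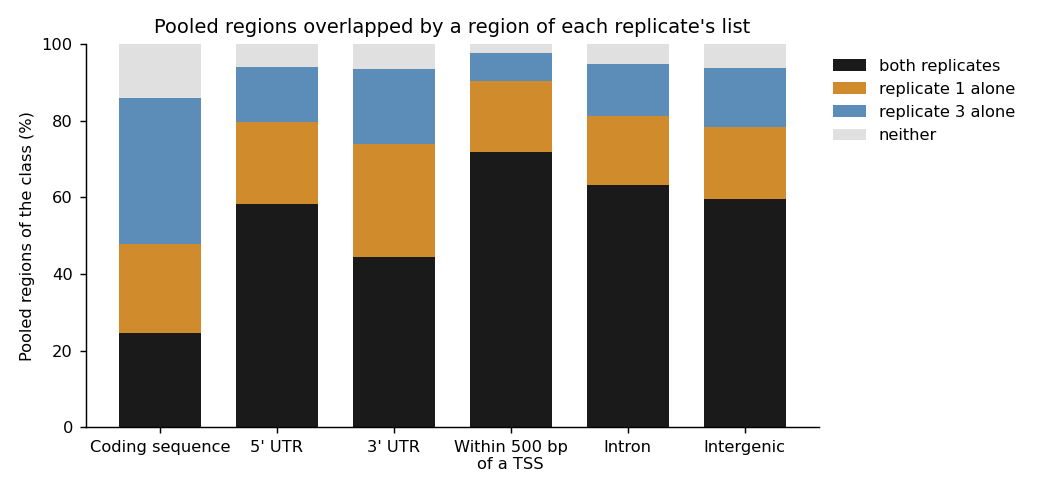
Percentage of pooled regions of each class (y axis) overlapped by at least 1 bp in both replicates, in replicate 1 only, in replicate 3 only or in neither. Both replicates covered 24.7% of coding members, against 71.7% of the regions within 500 bp of a TSS.

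Rank moved with this overlap, so the classes were also read within ranges of rank. Between ranks 7501 and 15000, both replicates overlapped 35 of 47 coding members (74.5%, 59.7 to 86.1), against 83.5% of all regions there. Between ranks 15001 and 22500 they overlapped 99 of 230 (43.0%, 36.6 to 49.7), against 49.3%. Among the weakest 7500 regions, where 541 of the 830 coding members lay, they overlapped 59 (10.9%, 8.41 to 13.8), against 22.7% of all regions. The 3′ UTR members of that range gave 34 of 238 (14.3%, 10.1 to 19.4) and the 5′ UTR members 17 of 74 (22.97%, 14.0 to 34.2). Within each range of rank the gap between coding members and all regions was smaller than over the whole list, and it was widest at the weak end.

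For members overlapped in both replicates, the ranks of signal in the replicates were compared as a description across regions. Spearman's rho was 0.34 over the 205 coding members, 0.70 over the 157 in 5′ UTRs and 0.70 over the 263 in 3′ UTRs, against 0.80 over the 19004 pooled regions of all kinds. These points share their 2 libraries, and the coding members span a narrower range of ranks.

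**Figure D4:**
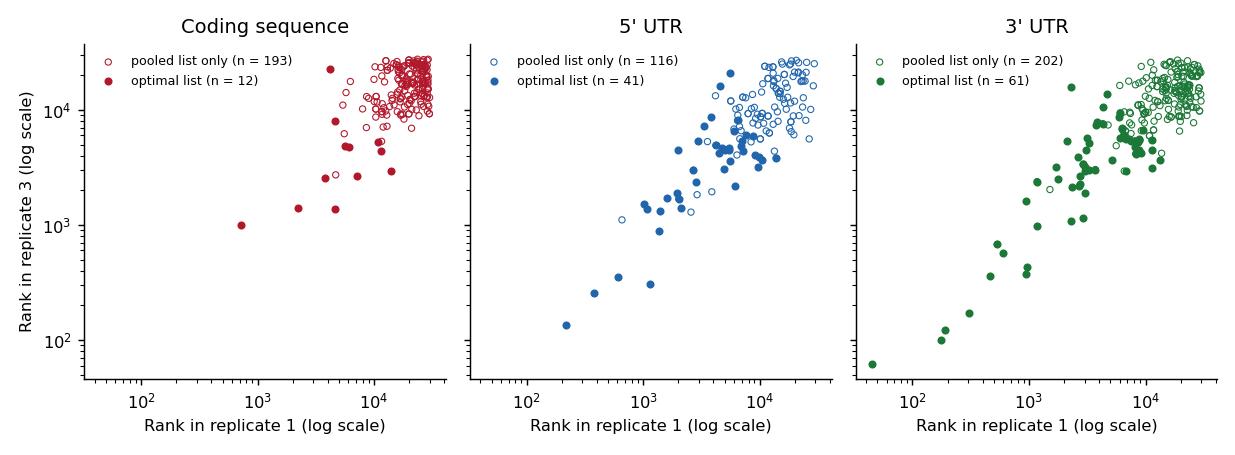
Rank by signal in replicate 1 (x axis) and in replicate 3 (y axis), both on log scales with low ranks strong, for members overlapped in both replicates; filled points are in the optimal list. Most coding points lie toward the weak end, with otp at ranks 723 and 1003 nearest the strong end, while the UTR classes spread over the whole range.

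The 12 coding members of the optimal list are in genes of varied kinds. The strongest was in otp, which encodes the homeodomain factor Orthopedia, at chr2R:20884461-20884757 with a pooled signal of 401 and rank 820. It ranked 723 in replicate 1 and 1003 in replicate 3, so both libraries placed it high. Its summit lay 162 bp from the nearest non-exonic base.

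The next were in bif and klar. bif encodes Bifocal, a cytoskeletal protein known from photoreceptors, and its region at chrX:11681555-11681984 had a signal of 248 with ranks 2223 and 1405 in replicates 1 and 3. klar encodes Klarsicht, which positions nuclei in photoreceptors, and its region at chr3L:506136-506339 had a signal of 193 with ranks 4644 and 1375. Both were among the 6835 strongest regions of each replicate.

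CG31259 had a signal of 163 (ranks 3797 in replicate 1 and 2551 in replicate 3), at a summit 568 bp from a TSS. CG10962 had 126, ranked 7101 and 2678 in replicates 1 and 3, and a second protein-coding gene also lay over its summit. su(w[a]), a regulator of splicing, had 112 (ranks 5603 and 4889). Naprt, an enzyme of NAD synthesis, had 111 (ranks 6032 and 4786), 17 bp from the edge of its exon.

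The remaining 5 ranked lower in the pooled list. CG11668 ranked 13838 in replicate 1 and 2976 in replicate 3. shn, which encodes the zinc-finger protein Schnurri of the Dpp pathway, ranked 4603 and 7986. CG6678 ranked 10765 and 5246, and Snx27, a sorting nexin, 11512 and 4401. bip1, the weakest of the 12 with a signal of 80.9, ranked 4184 in replicate 1 and 22512 in replicate 3. Each of these 5, like CG10962, fell outside the 6835 strongest regions of 1 replicate.

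The strongest 3′ UTR members ranked higher and more evenly. CG43389 had a pooled signal of 1446 at chr3L:3248628-3249252 and ranked 45 in replicate 1 and 62 in replicate 3. Its summit lay 430 bp from the start of a noncoding gene, and 66.7% of its region was exonic. CG7872 had 951 (ranks 176 and 99) and Ance-3, a member of the angiotensin-converting enzyme family, had 897 (ranks 189 and 121). These lie among the strongest regions of either library.

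by, which encodes the focal adhesion protein Tensin, had 586 (ranks 459 and 357). CG33307 had 501 (ranks 535 and 678), with a second protein-coding gene over its summit. Cals, which encodes Calsyntenin, had 500 on chromosome 4 (ranks 595 and 567), 9600 bp from the nearest TSS. stas had 483 (ranks 934 and 375) and APC7, a subunit of the anaphase-promoting complex, had 444 (ranks 952 and 435). All 8 were thus within the first 1000 ranks in each replicate.

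Among the 5′ UTR members, Fbl6, an F-box protein, was strongest with a signal of 868 (ranks 219 in replicate 1 and 134 in replicate 3), at a summit 531 bp from a TSS. Raf, the MAP kinase kinase kinase of receptor tyrosine kinase signalling, had 659 (ranks 379 and 254), and cic, which encodes the repressor Capicua of the same pathway, had 554 (ranks 612 and 351). eas, an ethanolamine kinase, had 486 (ranks 1145 and 304). Mef2, the muscle transcription factor, had 334 (ranks 1361 and 895), and baz, the polarity protein Bazooka, had 308 (ranks 1072 and 1368), 18754 bp from the nearest TSS. Both libraries placed all 6 well inside their 6835 strongest regions. Of the 6, only the Raf summit was 5′ UTR in every protein-coding transcript over it. That summit lay 28 bp from a non-exonic base, and 38.4% of its region was exonic. Among the 41 5′ UTR members of the optimal list, 12 (29.3%, 16.1 to 45.5) were 5′ UTR in every such transcript.

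The rule's distance of 500 bp from a TSS was checked by the members next to it, as a description. In 5′ UTRs, the 65 members at 501 to 600 bp had a median signal of 38.9 with 13 in the optimal list, and the 61 summits left out at 401 to 500 bp had 28.0 with 7. In coding sequence the 50 members just inside had a median of 19.5 with 1 in the optimal list, and the 63 left out had 20.01 with 4. In 3′ UTRs the 27 just inside had 21.8 with 2, and the 20 left out had 40.3 with 6. The 5′ UTR members as a whole lay close to this limit: 66.7% of them (60.7 to 72.3) were 501 to 1000 bp from a TSS, against 41.8% of all 5′ UTR bases beyond 500 bp. The same share was 33.6% of coding members (30.4 to 36.9) against 22.5% of coding bases, and 19.1% of 3′ UTR members (16.0 to 22.5) against 14.7% of 3′ UTR bases.

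Position within the exon was then described. Of the coding members, 54.9% (51.5 to 58.4) had a non-exonic base within 215 bp, the usual distance from a summit to the end of its region, against 49.8% of coding bases. In the optimal list 10 of 12 did (83.3%, 51.6 to 97.9). Of these 12 regions, 4 lay wholly within exons and the other 8 reached into non-exonic sequence. Over all coding members, 377 of 830 regions (45.4%) were wholly exonic, as were 140 of 270 in 5′ UTRs (51.9%) and 404 of 593 in 3′ UTRs (68.1%).

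The coding sequence of the longest transcript was divided into 4 parts of equal length, numbered from the start codon. Part 1 held 26.9% of the 807 coding members placed in it (23.9 to 30.1), against 16.9% of the coding bases that are more than 500 bp from a TSS. Part 2 held 21.9% against 26.1% of bases, part 3 held 24.8% against 28.6%, and part 4 held 26.4% against 28.4%. The median coding exon under a member was 590 bases long. The annotation was the same in every transcript for 84.6% of coding members and 86.8% of 3′ UTR members, but for only 42.6% of 5′ UTR members (36.6 to 48.7), close to the 43.1% of 5′ UTR bases. For the other 5′ UTR members, another protein-coding transcript, of the same or another gene, has an intron, coding sequence or 3′ UTR at the same base.

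Members in 5′ UTRs had another summit nearby more often than those in coding sequence. Another pooled summit lay within 1000 bp of 77.0% of 5′ UTR members (71.6 to 81.9), 51.6% of 3′ UTR members and 45.1% of coding members (41.6 to 48.5), against 62.2% of all pooled regions. A summit of the optimal list lay within that distance of 22.96% of 5′ UTR members, 10.6% of 3′ UTR members and 11.0% of coding members, against 18.6% of all. The start of a noncoding gene lay within 500 bp of 2.89% of coding members, 2.22% of 5′ UTR members and 4.38% of 3′ UTR members, against 4.39% of all pooled regions. Annotated transposable elements covered the summits of 0 coding members, 1 in a 5′ UTR and 1 in a 3′ UTR, against 107 of all 30000 pooled regions (0.357%). They cover 0.0355% of coding, 0.303% of 5′ UTR and 0.837% of 3′ UTR bases away from promoters.

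Base composition separated coding summits from the rest. In the 101 bp centred on the summit, G and C made up 56.5% ± 8.06 (SD over 830 regions) in coding members, against 38.8% over all pooled regions. All coding bases away from promoters average 53.4%. In windows of the same size 300 bp to each side, coding members had 47.9%, so their summits were 8.53 percentage points richer than their flanks, while over all pooled regions the same difference was −4.37 points. Replicate 1 gave a difference of 7.50 points and replicate 3 one of 7.71.

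Most coding members had a flank that left the exon, so windows inside coding sequence were also read alone. In the 175 coding members whose summit window and both flank windows lay wholly in coding sequence, the summit had 57.8% ± 6.61 and the flanks 55.9% ± 5.84, a difference of 1.95 points (SD 5.86 over regions), and the summit was the poorer one in 32.6%. The same restriction gave 0.561 points over 143 regions of replicate 1, where the summit was the poorer one in 49.0%. It gave 1.65 points over 398 regions of replicate 3, with the poorer summit in 36.2%.

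The UTR members differed. In 3′ UTRs the summit had 36.6% G and C against 39.3% in the flanks, a difference of −2.71 points, and −6.30 points for the 61 in the optimal list. With all windows inside the 3′ UTR the difference was −0.22 points over 266 members. In 5′ UTRs the summit had 43.6% and the flanks 42.1%, a difference of 1.48 points that turned to −1.80 over the 79 members whose windows lay wholly in 5′ UTR. For the 41 members of the 5′ UTR in the optimal list it was −0.94 points. Over the whole optimal list the difference was −10.3 points. The 12 coding members of that list went the other way on average, with 52.6% at the summit and 43.3% in the flanks. Their difference was 9.32 points (SD 14.0 over regions). Of the 12, 10 had a non-exonic base within 215 bp, and no difference inside coding sequence alone was read for the 12. A poorer summit was found in 3 of the 12. These were su(w[a]), whose summit is not coding in every transcript, with 34.7% at the summit against 46.5% in the flanks, Naprt with 33.7% against 49.0%, and bif with 40.6% against 42.6%.

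**Figure D5:**
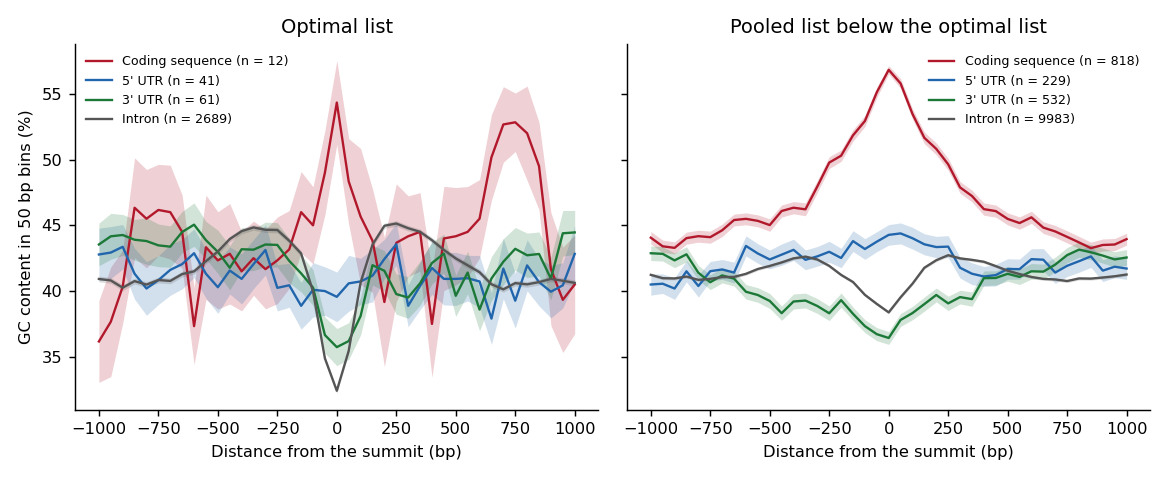
Mean GC content in 50 bp bins (y axis) by distance from the summit (x axis) for coding, 5′ UTR and 3′ UTR members and for intronic summits, in the optimal list (left) and in the rest of the pooled list (right); bands are the standard error over regions, which are not replicate samples. Coding summits sit on a GC peak and intronic and 3′ UTR summits on a dip, and in the pooled list below the optimal one the coding peak falls off on both sides of the summit.

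Short motifs were searched on both strands in the same 101 bp windows, and a match describes the letters only. CAGCAGCAG, typical of the glutamine-encoding opa repeats of fly proteins, was found in 4.58% of coding summit windows and 3.86% of their flanks, against 0.670% of all pooled summit windows. AT-rich motifs were scarce at coding summits: TATAAA was in 1.69% of their windows against 16.4% of all pooled ones, AATAAA in 2.65% against 24.7%, and TAATTA, the core bound by many homeodomains, in 1.33% against 7.70%. GC content differs between the same windows, and its part in these shares was not tested.

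AATAAA, the polyadenylation signal hexamer, was in 29.2% of 3′ UTR summit windows and 23.8% of their flanks, against 24.7% of all pooled summit windows and 19.7% of their flanks. GAGAG, the core recognised by GAGA factor, was in 21.5% of 5′ UTR summit windows and 18.7% of their flanks, against 12.04% of all pooled windows. TATCGATA, bound by the factor DREF, was in 0 of 270 windows in 5′ UTRs, 0.169% in 3′ UTRs and 0.120% in coding sequence, against 1.10% of all pooled windows. The Pax6 paired-domain consensus, with 1 mismatch allowed, was in 0.482% of coding, 0.370% of 5′ UTR and 0.169% of 3′ UTR windows, against 0.417% of all pooled windows, so all of these shares were low.

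Members were spread over many genes. An exonic member lay in 1303 of 13945 protein-coding genes (9.34%): 725 with one in coding sequence, 223 in a 5′ UTR and 498 in a 3′ UTR. Most of these genes, 1028, held 1 member, 196 held 2 and 79 held 3 or more. Long exons have more room for a summit, so the exonic bases away from promoters are given beside the counts.

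The genes with the most members were br, corto, EcR, CG12535 and bun. Their counts in the optimal list stand beside 6.73% of all exonic members and 22.8% of all pooled regions. br, which encodes the BTB zinc-finger factors of the Broad complex, early genes of the steroid hormone ecdysone, held 11 members in 17.2 kb of exon, 4 in coding sequence and 7 in 3′ UTRs. Their signals ran from 18.4 to 46.2 and none was in the optimal list, but replicate 1 overlapped all 11, 2 of them by the same region, and replicate 3 overlapped 6, against 82.2% and 76.3% of all pooled regions. A second protein-coding gene on the other strand, Mur2B, also lay over all 11 summits. The strongest, at chrX:1663146, ranked 15084 in replicate 1 and 12620 in replicate 3.

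corto, a chromatin protein gene, held 9 members in 8.43 kb, with signals from 17.0 to 55.6 and none in the optimal list. EcR, the ecdysone receptor, held 8 in 8.82 kb, of which the 5′ UTR summit with a signal of 85.5 was in the optimal list and ranked 7588 in replicate 1 and 6071 in replicate 3. CG12535 held 7 in 6.32 kb, 3 of them in the optimal list. The strongest of these, with a signal of 202 and ranks 2671 and 2175, also lay in the 3′ UTR of Myc, the growth regulator, so its 3′ UTR could be that of either gene. bun, a TSC22-domain transcription factor gene, held 7 in 9.51 kb, none in the optimal list. Some neighbouring members fell in the same replicate region, as pairs in br, corto, EcR, CG12535 and bun did, and are not separate there.

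The members were set against 19 lists of genes with known roles. The ecdysone response list stood highest: 10 of its 21 genes held a member, against the 9.34% of all genes. These were EcR, br, Eip75B, Eip74EF, Hr4, Hr39, crol, Kr-h1, gce and E23, most of which encode nuclear receptors and zinc-finger or juvenile hormone factors acting as larvae turn to metamorphosis. They held 42 members. Over the exons of all 21 genes of the list, 139 kb away from promoters, this is 302 per Mb (217 to 408), against 65.7 per Mb (62.6 to 68.9) over all exons away from promoters. Both replicates overlapped 25 of the 42 (59.5%), against 36.9% of all exonic members and 63.3% of all pooled regions, and some of the 42 shared 1 replicate region. In the separate lists the same exons held 374 summits per Mb in replicate 1 and 208 in replicate 3. The introns of the list's 21 genes were dense too, with 541 summits per Mb (486 to 600) against 243 over all introns. Of the 42, 1, in EcR, was in the optimal list, against 6.73% of all exonic members.

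The cytosolic ribosomal protein list, which includes paralogs named by the RpL or RpS prefix, held a member in 11 of 93 genes (11.8%, 6.05 to 20.2). This share was near the 9.34% of all genes. The 11 were RpS26, RpL22-like, RpL4, RpL31, RpS2, RpL6, RpL38, RpL19, RpL21, RpL17 and RpS29. The list's 12 members gave 234 per Mb (121 to 408) in 51.3 kb of exon, against 65.7 over all exons away from promoters. In the separate lists these exons held 253 summits per Mb in replicate 1 and 117 in replicate 3, against 69.3 and 90.6 over all exons. None of the 12 was in the optimal list, against 6.73% of all exonic members. Both replicates overlapped 2 (16.7%), against 36.9% of all exonic members and 63.3% of all pooled regions. The strongest, in RpL22-like, had a signal of 28.9, below the median of 34.2 over all pooled regions, so these were weak regions.

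The lists closest to the known roles of Eyeless rested on few members, so their intervals are wide. Of the 14 retinal determination genes, 3 (21.4%) held one, against 9.34% of all genes: hth with 3 members, and dac and eya with 1 each. The strongest, in the hth 3′ UTR, had a signal of 31.4 and ranked 27126 in replicate 1 and 13011 in replicate 3. None of the list's members was in the optimal list, against 6.73% of all exonic members. Their exons held 107 members per Mb (34.8 to 250), an interval that includes the 65.7 over all exons, beside 405 intronic summits per Mb (324 to 498). Of the 33 eye patterning genes, 6 (18.2%) held a member (spi, ptc, Egfr, ru, ara and fz), led by spi, a ligand of the EGF receptor, with a signal of 22.5. Their exons held 63.9 per Mb (25.7 to 132), beside 572 summits per Mb in their introns. Of the 28 phototransduction genes, 3 (10.7%) held one (santa-maria, eys and rdgA), at 31.9 members per Mb (6.57 to 93.1).

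The cell type lists also rested on few members, and are read beside 9.34% of all genes and 65.7 members per Mb over all exons. Of the 30 neuronal genes, 3 held a member (elav, Syx1A and Shal), at 16.5 members per Mb (4.51 to 42.4). Of the 16 glial genes 3 (18.8%) did (NetB, moody and repo), at 96.0 members per Mb (31.2 to 224). NetB, a secreted guidance cue, had a 3′ UTR summit with a signal of 269 that ranked 2302 in replicate 1 and 1093 in replicate 3. Of the 26 sarcomere genes 2 (7.69%) held one, at 7.91 members per Mb (0.958 to 28.6) in the pooled list, an interval also below 65.7. The same exons held 19.8 summits per Mb in replicate 1's list and 55.4 in replicate 3's, against 69.3 and 90.6 over all exons in those lists. The neuronal exons held 12.4 and 37.2 per Mb there. Of the 17 fat body genes 3 (17.6%) held a member, at 122 members per Mb (48.9 to 250), led by the lipid droplet protein Lsd-2 with 103 (ranks 4278 and 7594). None of the 18 salivary gland glue genes, the 36 midgut digestion genes or the 111 replication-dependent histone genes held a member in the pooled list. The exons of the midgut genes held 2 summits in replicate 1's list and 1 in replicate 3's. For these short genes, the exons away from promoters total 14.4, 17.9 and 14.9 kb, and a count of 0 allows up to 257, 206 and 247 members per Mb, which is above the density over all exons.

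The other lists were near the 9.34% of all genes or rested on few members, except that the share of cuticle protein genes was lower (3.33%, 0.916 to 8.31). Per Mb the cuticle protein genes were not lower: their exons held 73.1 members per Mb (23.7 to 171), an interval that includes the 65.7 over all exons. A member lay in 3 of 8 Hox genes (37.5%, 8.52 to 75.5), namely Antp, abd-A and Ubx. Their list held 146 members per Mb of exon (47.3 to 340), and both replicates overlapped 1 of the 5 members. In the separate lists these exons held 29.1 summits per Mb in replicate 1 and 175 in replicate 3, against 69.3 and 90.6 over all exons. Of 33 chromatin regulators 5 (15.2%, 5.11 to 31.9) held one, led by Tet with 101 (ranks 9146 in replicate 1 and 4089 in replicate 3). Of 19 cytoskeleton genes 3 (15.8%, 3.38 to 39.6) did. Per Mb of exon the chromatin regulators held 57.6 members (24.9 to 114) and the cytoskeleton genes 51.9 (19.1 to 113), against 65.7 over all exons. Among the cytoskeleton genes, chic, which encodes profilin, had a 3′ UTR summit with a signal of 203, ranked 2354 and 2142. A member also lay in 3 of 20 heat shock genes, 2 of 22 translation factor genes, 2 of 20 Notch and E(spl) genes and 4 of 120 cuticle protein genes, where Cpr47Ec led with 85.1 (ranks 6292 and 6999).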

How the data were processed

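ChIP-seq lists from 2 replicates of 1 group were used. The authors deposited, per the file headers, a list of candidate regions for each replicate and for the pool, and an optimal list from the irreproducible discovery rate procedure. The deposited signal per region has no stated scale. The deposited −log10 q-value was left unused. Summits were placed by the authors' offset from the region's start, another deposited value, in bases. What aligner, caller and threshold the authors used was not given in the sources used here. The dm6 lists were used and the dm3 lists were left out. Read totals cannot be read from these lists, so depth is unknown.

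Summits were classified with Ensembl release 115 models (BDGP 6.54) with the window of 500 bp around a TSS taking precedence, then 5′ UTR over coding sequence over 3′ UTR, then exons of other genes, introns and intergenic sequence. Python 3.11.15, numpy 2.4.6, pandas 2.3.3, scipy 1.17.1 and matplotlib 3.10.9 were used, and the classification, overlap, GC and motif steps were checked on made-up data. Shares carry exact Clopper-Pearson and densities exact Poisson 95% intervals, which cover counting error over regions only. Regions are not replicate samples, and no test over samples was possible.

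Named were the 12, 8 and 6 members with the highest signal in coding sequence, 3′ UTRs and 5′ UTRs, every coding member of the optimal list, the strongest member of each of 19 gene lists and the 5 genes with most members, and 18 motifs were searched. The members, lists and motifs were chosen with earlier results of these data known. Alternatives covered the summit, the TSS distance, the class order, transcripts, duplicates, a shorter list, each replicate alone, overlap and window size, with 1 (GC windows wholly inside the class) chosen after seeing the data. Of the listed gene symbols, 16 had no match among the models.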

Additional observations from a re-analysis of the deposited data

How the results depend on the processing

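Each main value was recomputed under several alternatives and is counted once per alternative. By that count, 54 stayed within 1.5 times (counts), within the exact interval (shares) or within the SD of the 2 replicates' own lists (GC differences). Another 38 moved further and 1 reversed. Requiring more than 1000 bp from a TSS gave 551 coding and 90 5′ UTR members, 11.1% of the 5′ UTR ones among the 6835 strongest, and GC differences of 8.17 points in coding sequence and 4.15 in 5′ UTRs. Requiring more than 250 bp gave 512 5′ UTR members with a GC difference of 0.0657 points, and −3.48 points in 3′ UTRs. Keeping the 15000 strongest regions left 59 coding, 114 5′ UTR and 168 3′ UTR members, of which 20.3%, 35.97% and 36.3% were among the 6835 strongest by construction of the shorter list, with GC differences of 9.15, 0.443 and −4.19 points. Requiring the same class in every transcript left 115 5′ UTR members, with 10.4% among the strongest and a GC difference of 1.19 points. In 5′ UTRs the GC difference was 1.31 points with region midpoints and 0.888 with coding sequence given precedence, and in coding sequence it was 8.98 with windows of 25 bp to each side. With all windows inside the class, a setting chosen after seeing the data, the GC difference was 1.95 points in coding sequence and −0.22 in 3′ UTRs, and it reversed to −1.80 in 5′ UTRs. Overlap of 50% of both lengths left 17.3% of coding, 41.5% of 5′ UTR and 36.6% of 3′ UTR members overlapped in both replicates, and the 6835 strongest regions of each replicate left 0.964%, 14.1% and 8.09%.

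With 1 replicate left out, the members numbered 759 to 1497 in coding sequence, 9.72% of 3′ UTR members without replicate 1 and 6.41% without replicate 3 were among the strongest, and the GC difference ran from 7.50 to 7.71 points in coding sequence, 0.487 to 0.631 in 5′ UTRs and −3.60 to −3.05 in 3′ UTRs. The causes of these shifts were not tested. Of 54 motif shares, 26 stayed within their interval with windows of 100 bp to each side and 28 moved. No paired analysis was possible because the samples form 1 group and no result comes from a test. Read depth is unknown, so no limit on detection could be set.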
